A study of Mus musculus with 40 samples.

Results

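Mice given 75 µg of Kal-1 were compared with mice given 20 µg of it at matched weeks, which sets the highest dose of this aqueous plant formulation against the middle dose. The members are the 5 HF75 and the 5 HF20 arrays of weeks 3, 6, 9, 12 and 15, which make up 10 of the 40 arrays of the series. They were paired by week for the comparison, though week numbers do not all mark pairs, as given at the end. All groups were C57BL/6J mice that entered the study at weaning, at 3 to 4 weeks of age. HF20 and HF75 mice ate a sucrose-enriched high-fat diet with 60% of its calories from fat, together with 20 µg or 75 µg of Kal-1. HFC mice ate that diet with no Kal-1 and HF5 mice ate it with 5 µg. The 5 arrays of each of these groups at the same weeks serve here as description. Each group began with 30 animals, of which 5 were killed every 3 weeks over 18 weeks. Each dose has 1 array per week, and how many animals went into each array is not given. The design text speaks of 3 biological replicates, which these arrays do not show, so p-values measure only the spread between these arrays. The RNA came from subcutaneous SVCs, which the labels do not spell out, and the design text of the series calls them infiltrating macrophages. Each array is a 1-colour Agilent array, and a level below is the log2 processed signal of a probe minus the 75th percentile of that array on the same scale.

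Subcutaneous fat holds adipocytes, which store triglyceride in lipid droplets and secrete leptin and adiponectin, and a stromal vascular fraction of progenitors, vessel cells, macrophages and lymphocytes that is set free when the tissue is digested. In obesity macrophages gather in fat, and NF-kB, the main transcription factor of inflammatory signalling, drives the cytokines and chemokines that recruit more of them. Genes of the AP-1, Egr and heat shock families respond within minutes to mechanical or enzymatic handling of cells, which is why such genes are read beside every cell preparation.

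The labelled cell type was checked against marker lists. All 13 macrophage markers passed the filter on dim probes, and their mean level was 1.00, 1.78, 1.58, 1.28 and 1.31 on the HF20 arrays of weeks 3 to 15 and 0.96, 1.53, 0.83, 0.86 and 1.50 on the HF75 arrays. Fibroblast and progenitor markers were present too, with mean levels of 3.27 to 3.77 in HF20 and 3.34 to 3.90 in HF75. The brightest member probe was that of Dcn, the matrix proteoglycan decorin. These arrays therefore read a mixture of cells in which macrophage markers are present beside those of other cells. Levels in such bulk RNA cannot tell fewer cells of a type apart from less RNA per cell.

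Several arrays stand apart, and the HF20 arrays of weeks 9, 12 and 15 are among them. The mean level of the 13 adipocyte markers was 2.15, 1.07, 5.13, 5.62 and 5.24 on the HF20 arrays of weeks 3, 6, 9, 12 and 15, and 2.22, 1.54, 3.03, 1.89 and 2.53 on the HF75 arrays. The late HF20 arrays were thus high and the early ones low, while every HF75 array was low. Among the 20 high-fat arrays of these weeks, 5 lay at 4.94 to 5.62, namely those late HF20 arrays with HFC and HF5 of week 9, and the other 15 lay at 0.51 to 3.03. The titles of the HFC, HF5 and HF20 arrays of week 9 carry the letters WS, which that of HF75 does not, and the labels do not explain them. Genes that respond to tissue digestion gave in part the opposite picture, with mean levels of 4.70, 3.89, −0.14, −1.33 and 1.00 in HF20 against 4.18, 4.85, 3.85, 4.85 and 5.39 in HF75. Of the 20 high-fat arrays, 4 lay at −1.33 to 1.00, namely the late HF20 arrays and HF5 of week 9. The other 16 lay at 2.22 to 5.46, HFC of week 9 among them. By overall expression, the HF20 array of week 12 lay nearest the HF5 array of week 9 (rank correlation 0.980 across probes, which are not independent). The HF75 array of week 12 lay nearest the HF5 array of week 12 (0.970). Results are therefore given over all 5 weeks and, for many lists, also over weeks 3 and 6 alone, where both doses have low adipocyte marker levels.

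**Figure D1:**
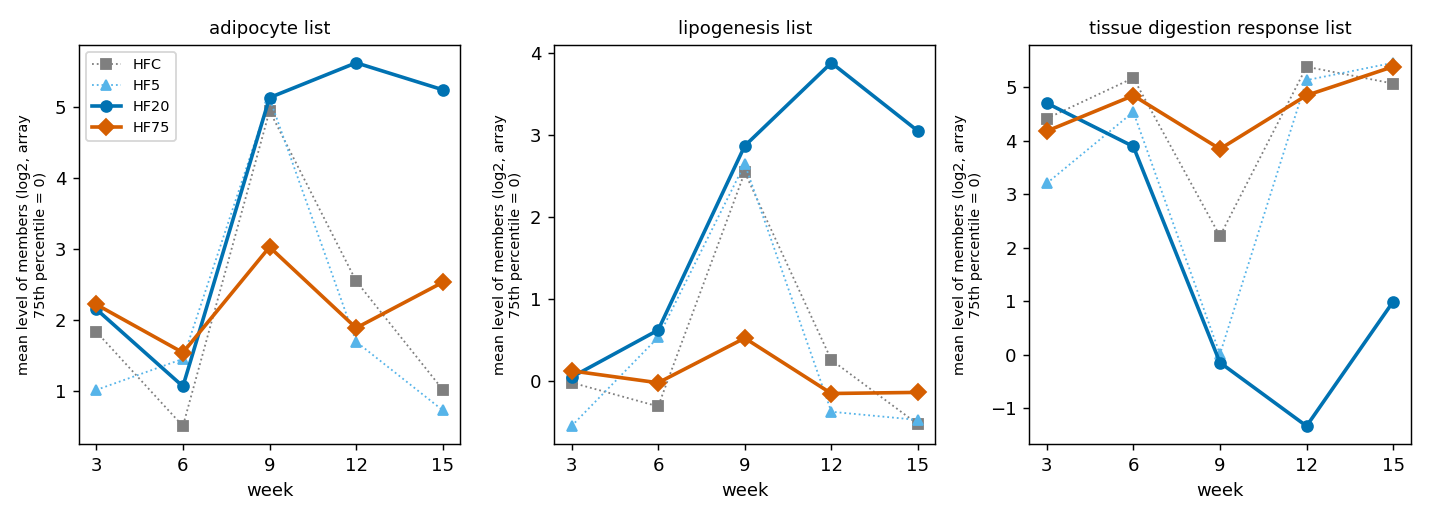
Mean level (log2 signal minus the 75th percentile of the array) of the adipocyte, lipogenesis and tissue digestion response lists in each week, 1 point per array, for HFC, HF5, HF20 and HF75. The HF20 arrays of weeks 9, 12 and 15 have adipocyte levels of 5.13 to 5.62, and the HF75 arrays of those weeks 1.89 to 3.03.

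The HF75 arrays were also dimmer. The 75th percentile of the processed signal was 749, 1793, 1441, 1027 and 1126 on the HF20 arrays and 520, 585, 442.0, 444 and 732 on the HF75 arrays. HF75 was the dimmer array in 5 of 5 pairs, by −1.14 ± 0.55 on the log2 scale (SD, n = 5 pairs; exact two-sided sign-flip p = 0.063, the smallest that 5 pairs allow). Between 65.1% and 68.3% of spots were well above background on HF75 arrays, against 67.4% to 86.5% on HF20 arrays. The median signal was 3.50 to 4.05 times background in HF75 and 4.60 to 10.8 times in HF20. Both doses of weeks 3, 12 and 15 were scanned on the same day, those of week 6 were scanned 1 day apart and those of week 9 were scanned 63 days apart. No slide holds both doses.

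**Figure D2:**
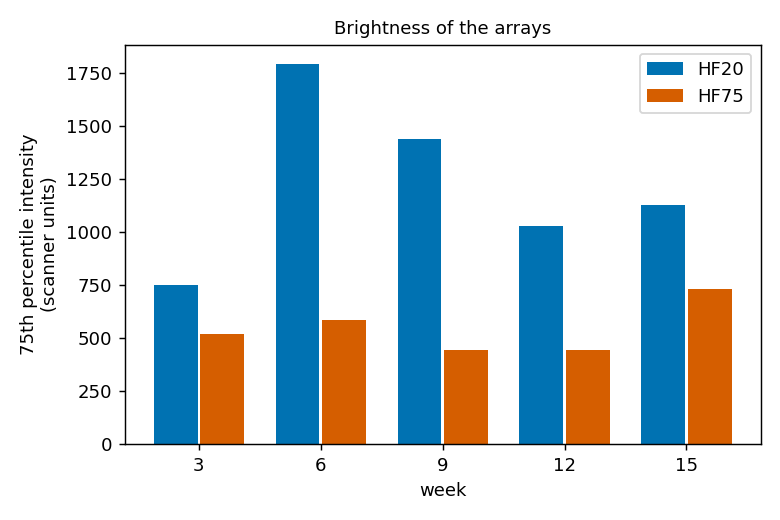
Bars give the 75th percentile of the processed signal (arbitrary units) of each HF20 and HF75 array by week, 1 array per bar. The HF75 bar is the lower in each of the 5 weeks.

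With 5 pairs, 101 probes rose and 3 fell from 20 µg to 75 µg, and most of the probes that rose share a stretch of letters. Krt2, a keratin of the upper epidermis, rose by 7.62 ± 0.94 (log2 difference ± SE, n = 5 pairs; limma, Benjamini-Hochberg adjusted p = 0.0426). Polq, the DNA polymerase of end joining, rose by 7.29 ± 0.85 (adjusted p = 0.0379 in limma). That size rests on dim values, since 1 of 5 HF20 arrays was well above background and the probe passed the filter through HF75 alone. Sh3bp1, a GTPase-activating protein of Rac signalling, rose by 6.75 ± 0.91 (adjusted p = 0.0453 in limma), and Skint11, a member of a skin and thymus immunoglobulin family, by 6.73 ± 0.74 (adjusted p = 0.0379), with 3 of 5 HF20 arrays well above background and a size that rests in part on dim values. Epb41l5, a FERM protein of cell junctions, fell by 2.60 ± 0.35 (adjusted p = 0.0453 in limma). The size again rests on dim values, since 1 of 5 HF75 arrays was well above background and the probe passed the filter through HF20 alone. Palm, the lipid-anchored membrane protein paralemmin, fell by 1.76 ± 0.24 (adjusted p = 0.0486).

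Of 30893 probes tested in limma with week as a block, 0.327% rose and 0.00971% fell at an adjusted p under 0.05, and the lowest adjusted p was 0.0379. At an unadjusted p under 0.05, 3470 probes were higher in HF75 (11.2%) and 4092 lower (13.2%). The median difference over all probes was −0.11 and the median SE 0.37. After normexp background correction the balance turned, with 2642 higher and 1736 lower at an unadjusted p under 0.05 in limma and a median difference of 0.24. The count of probes past the adjusted threshold rests on single weeks. It was 386 (238 higher, 148 lower) without week 3 and 81 without week 12. Without week 6, week 9 or week 15 limma called 0 probes, with 7076, 5325 and 5165 at an unadjusted p under 0.05. Limma with no week term called 59, of which 42 were also called with it, and the per-probe test that the study's methods name, without the moderation of limma, called 0 with 6475 at an unadjusted p under 0.05. With scan day as the block in limma, 0 passed and 3449 had an unadjusted p under 0.05. That block leaves only the 3 same-day pairs of weeks 3, 12 and 15, so list medians given with it below are drawn from the same pairs as the same-day values beside them. Weeks 3 and 6 alone, a choice made after seeing the data, gave 0 calls in limma and 1765 at an unadjusted p under 0.05.

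Sharing the estimate of spread with the HFC and HF5 arrays, 20 in all, limma called 1379 probes higher (4.46%) and 1568 lower (5.08%) in HF75 than in HF20. That count rests on single weeks as well. Leaving out week 3, 9 or 12 gave 5777, 916 and 249 calls, and leaving out week 6 or 15 gave 0, with 8750 and 6510 probes at an unadjusted p under 0.05; these refits were chosen after seeing the data. An adjusted p from the 20-array fit is given below only beside that of the 10-array fit.

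As a description with no test, 398 of 30833 probes were at least 2-fold higher (1.29%) and 78 at least 2-fold lower (0.253%) in HF75 in all 5 pairs. Over the 4 weeks left when week 3 is dropped, 1488 probes met this rule in place of 476. The share of probes at least 2-fold apart, in either direction, was 19.9% at week 3, 29.4% at week 6, 48.9% at week 9, 49.7% at week 12 and 41.2% at week 15. The doses were thus closest in the early weeks and farthest apart in the weeks in which the HF20 arrays stand apart.

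Krt2 shows the form of the called differences. Its level was 2.47, −3.67, −4.37, −4.69 and −2.52 on the HF20 arrays of weeks 3 to 15 and 6.55, 3.48, 3.02, 6.97 and 5.30 on the HF75 arrays. The HF20 arrays are low except that of week 3, and no HF20 array reaches the lowest HF75 array. Polq read −1.43, −6.32, −6.38, −7.86 and −6.96 in HF20 and 3.30, −0.71, 0.21, 2.82 and 1.88 in HF75. Its values from the week 3 HF20 array and the week 6 HF75 array come closest, without overlap. Sh3bp1 read 1.08, −4.13, −2.19, −4.74 and −2.99 in HF20, and 6.11, 2.74, 1.61, 5.89 and 4.44 in HF75. Again week 3 of HF20 is the highest of its dose and still below every HF75 array.

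Among genes with a RefSeq symbol, each by its brightest probe, the 10 that rose most also include Gm3087, Gm4435, Gm2557, Gm3438, Gm2955 and Gm3384, predicted genes with differences of 6.53 to 7.26. Of the 101 probes that rose, 48 carry a predicted, clone or accession name. How common such names are among all probes tested was not counted. Over all 101, the differences ran from 2.09 to 7.92 with a median of 4.78. Only Palm and Epb41l5 fell by the probe that stands for the gene, and the third probe that fell, for the mitochondrial anchoring protein Akap1, is not the brightest of its gene and was named after its value was seen (−2.23, adjusted p = 0.0453 in limma).

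Palm read −3.05, −2.11, −1.44, −1.34 and −1.47 in HF20 and −4.79, −3.69, −3.25, −3.04 and −3.41 in HF75. At each week HF75 is below HF20, while the week 3 HF20 array reads about as low as the later HF75 arrays. Epb41l5 read −4.61, −3.53, −3.44, −2.28 and −3.06 in HF20 and −6.35, −6.00, −6.55, −5.87 and −5.13 in HF75, and its other probe differed by −0.37. The genes next in line on the lower side did not pass the threshold in limma. They were Cds1 (−2.43, adjusted p = 0.0563), which makes CDP-diacylglycerol for phospholipids, Col5a3 (−1.55, 0.0617), a fibrillar collagen chain, Ctif (−1.83), Olfml1 (−2.03) and Enpp5 (−1.67, 0.0619). Fgfr1, the fibroblast growth factor receptor (−1.86, adjusted p = 0.0660 in limma), Tmbim1 (−1.67, 0.0730) and Atp6v0a1, a subunit of the proton pump of lysosomes (−1.59, 0.0740), complete the 10.

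The probes that rose share a stretch of G and A, a feature chosen after the values were seen. Of the 101, 90 hold GAGAG or GAGGAG in their 60 bases on the strand printed (89.1%), against 2959 of all 30893 probes tested (9.58%), and of the 3 that fell 0 hold it. Among probes with either motif, 3.04% rose and the median difference was 0.24, against 0.0394% and −0.14 among the rest. With 2 or more such motifs, 62 of 475 rose (13.1%) and the median was 1.76. The reverse complement, CTCTC or CTCCTC, stood in 2163 probes, of which 4 rose and whose median was −0.25. By the longest unbroken run of A and G in the probe, the median difference was −0.20 for runs of 0 to 5 bases, −0.10 for 6 to 8, 0.10 for 9 to 11, 0.62 for 12 to 14 and 1.21 for 15 or more. The numbers that rose were 0 of 13574, 23 of 12566, 25 of 3575, 28 of 875 and 25 of 303 probes. The other 14 called probes, 11 higher and 3 lower, hold neither motif. With the probes that hold either left out of limma and its adjustment, 0 of 27934 remaining probes passed, with 6550 at an unadjusted p under 0.05. The differences of those 14 are as before, such as 6.73 for Skint11. The 20-array fit without them called 752 higher and 1257 lower.

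The 60-base probes of the named genes with a settled non-predicted symbol are printed because the finding lies in their letters, with GAGAG and GAGGAG in capitals. The Skint11 probe rose without either motif, and those of Epb41l5 and Palm fell.
Krt2: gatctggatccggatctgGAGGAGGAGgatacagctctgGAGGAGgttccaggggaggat
Polq: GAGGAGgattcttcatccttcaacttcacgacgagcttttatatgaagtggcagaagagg
Sh3bp1: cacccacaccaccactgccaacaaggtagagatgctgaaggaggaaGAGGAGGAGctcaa
Skint11: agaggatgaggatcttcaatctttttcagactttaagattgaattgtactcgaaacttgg
Epb41l5: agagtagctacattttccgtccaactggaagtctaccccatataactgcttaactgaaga
Palm: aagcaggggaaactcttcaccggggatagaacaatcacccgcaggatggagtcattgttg

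**Figure D3:**
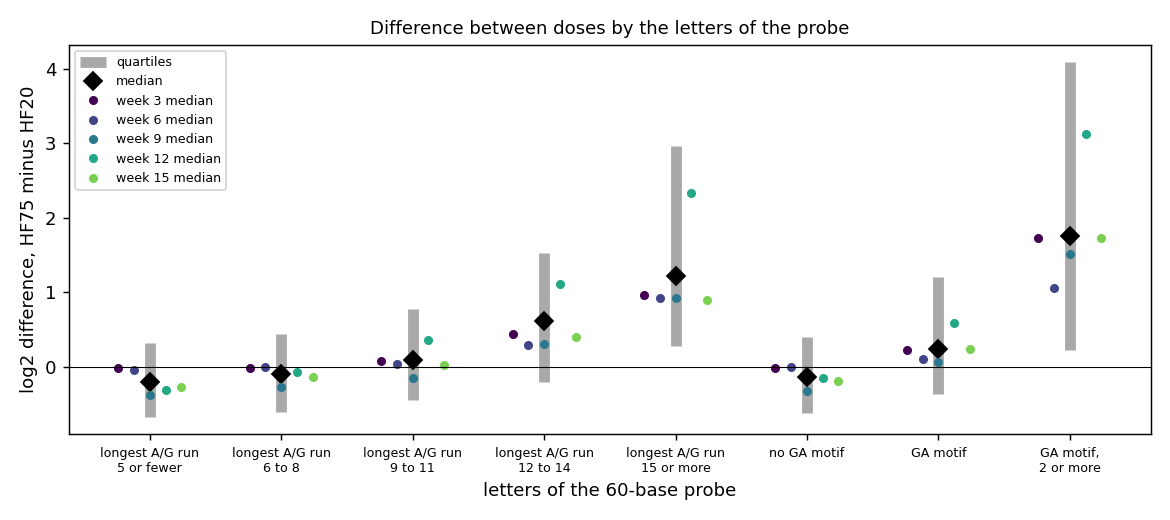
Difference HF75 minus HF20 (log2) by the longest run of A and G in the probe and by the GA motif (GAGAG or GAGGAG), with diamonds for the median over probes, bars for the quartiles and points for the median in each week. The median runs from −0.20 for runs of 0 to 5 bases to 1.21 for runs of 15 or more.

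Most other probes of the same genes did not follow. For 32 of the genes that rose, 47 further probes were tested, and their median difference was −0.22 (lowest −1.93, highest 4.89) where that of the probes that rose was 4.47. Of the 47, 32 differed by less than 1 in either direction, 5 were higher by 2 or more and 12 had an unadjusted p under 0.05 in limma. Of all probes tested, 11.23% had such a p on the higher and 13.25% on the lower side, so 12 is near the share over all probes. Those 5 were probes of Gm626 (4.89), 4930555F03Rik (4.22), the giant muscle protein Ttn (3.55), Gm41 (3.28) and Ldlrad4 (2.63), of which those of Gm626, 4930555F03Rik and Ldlrad4 hold a GA motif. With all tested probes of a gene averaged, limma called 0 of 22051 genes, with 5349 at an unadjusted p under 0.05. Sh3bp1, whose called probe holds a GA repeat near its end, had 2 further probes with differences of 1.20 and 0.95. Adcy6, an adenylate cyclase, rose by 3.57 in 1 probe and differed by −1.93 in another. Calm3, a calmodulin gene, rose by 4.68 in 1 probe, and its other probes differed by −0.57 and −0.26. Fosl2, an AP-1 subunit, rose by 4.52 ± 0.46 (adjusted p = 0.0379 in limma) in a probe with neither motif but a run of 17 A and G, and differed by 1.63 ± 0.53 in the other. Wnt5a, a Wnt ligand, differed by 4.14 in a probe with GAGAG (adjusted p = 0.0752 in limma) and by −1.12 in the other, which was well above background on 4 of 5 HF20 arrays and 1 of 5 HF75 arrays and so says little of the size. These genes were picked after their values were seen. Printed here, motifs in capitals, are the 2 further Sh3bp1 probes, neither called, with 1.20 first, and the 2 probes each of Fosl2 and Wnt5a with the larger difference first.
Sh3bp1: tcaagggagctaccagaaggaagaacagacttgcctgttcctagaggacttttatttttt
Sh3bp1: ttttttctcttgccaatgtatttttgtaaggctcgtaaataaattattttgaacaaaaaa
Fosl2: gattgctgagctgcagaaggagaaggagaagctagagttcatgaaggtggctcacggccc
Fosl2: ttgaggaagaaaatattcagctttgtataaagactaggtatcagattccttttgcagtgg
Wnt5a: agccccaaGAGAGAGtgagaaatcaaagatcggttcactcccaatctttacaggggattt
Wnt5a: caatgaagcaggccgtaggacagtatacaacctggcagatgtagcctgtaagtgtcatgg

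The GA signal also differs from array to array. The median deviation of probes with either motif, minus that of the rest, each from its mean over the 20 high-fat arrays, was 0.37, 0.10, 0.27, 0.33 and 0.21 on the HF75 arrays of weeks 3 to 15 and 0.08, −0.19, −0.11, −0.36 and −0.32 on the HF20 arrays. HFC arrays lay between −0.31 and 0.07 and HF5 arrays between −0.34 and 0.31. Every HF75 array is thus above every HF20 array, while the HF5 array of week 12 reaches the HF75 range. In the 20-array fit the motif was in 525 of the 1379 probes called higher (38.1%) and in 99 of the 1568 called lower (6.31%). Brightness moved with dose as well, and its part in this result was not tested.

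Gene lists are described below by how many members had an unadjusted p under 0.05, beside 11.8% of 19680 genes higher and 12.2% lower, each gene by its brightest tested probe. The same direction in 5 of 5 pairs was found for 10.8% of genes on the higher and 10.49% on the lower side. In the 20-array fit, 4.8% passed the adjusted threshold on the higher and 4.15% on the lower side. In limma over the 10 arrays the only list member past the adjusted threshold by its brightest probe was Mx1. The median difference over these genes was −0.09, and each list median is to be read against it. Some lists share members and are not independent of one another.

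**Figure D4:**
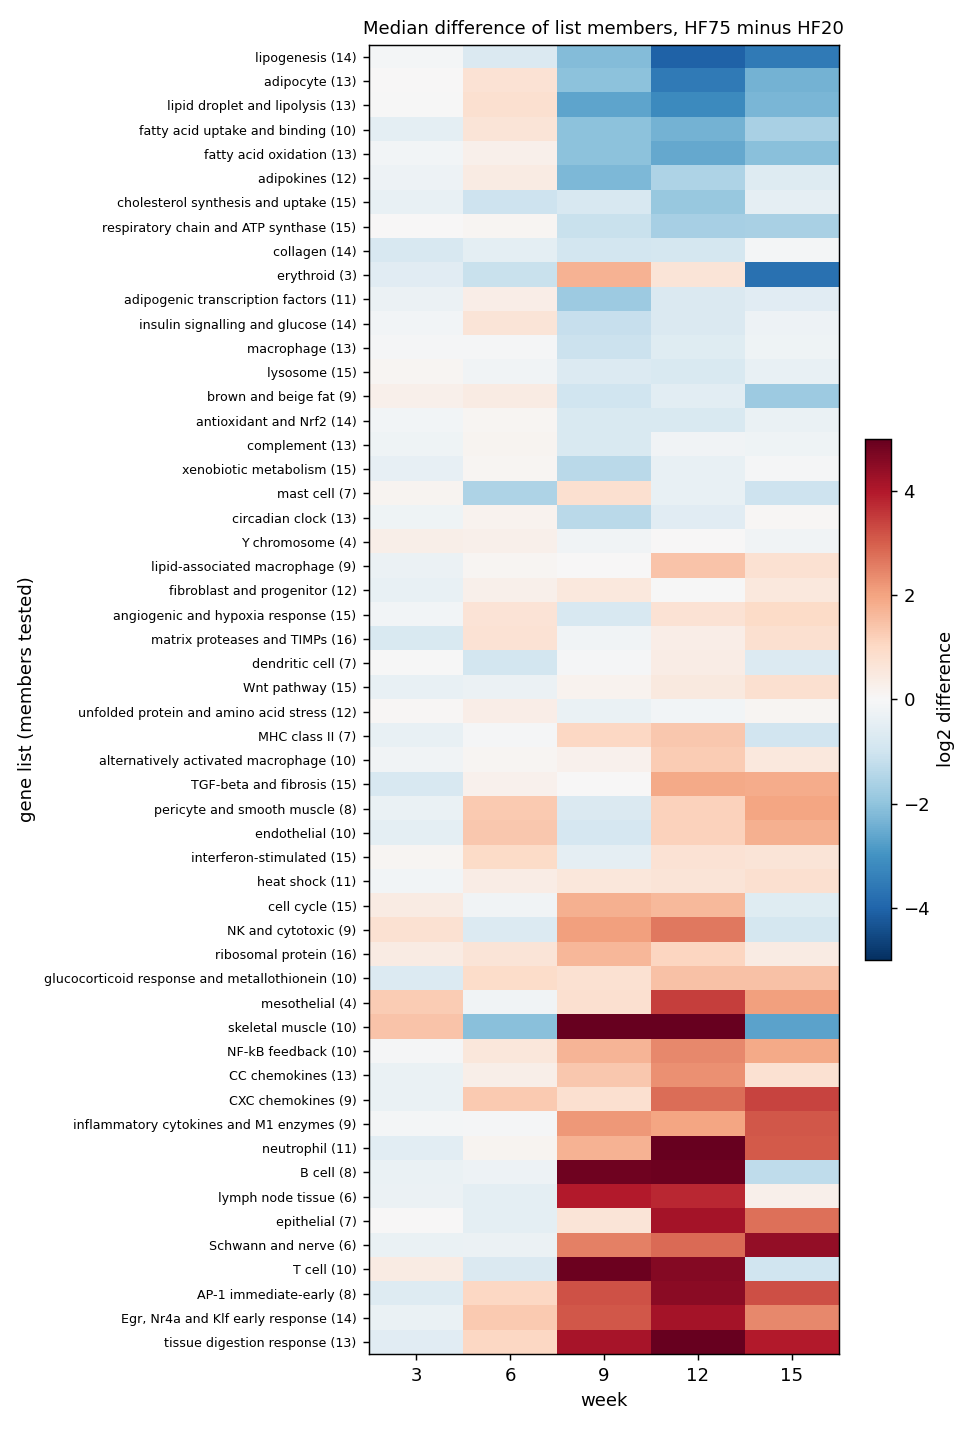
Median difference HF75 minus HF20 (log2) over the members of each gene list in each week, coloured from −5 to 5, with values past either end drawn at the end colours. The adipocyte list is at 0.04 and 0.73 at weeks 3 and 6 and at −2.06, −3.54 and −2.35 at weeks 9, 12 and 15, and the digestion list is high in the same weeks (4.13, 6.38 and 3.97).

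Fat storage genes gave the lowest values in HF75. Lep, which encodes the satiety hormone leptin, was lower by −4.53 ± 1.04 (SE, n = 5 pairs), Cebpa, a master factor of adipocyte identity, by −3.41 ± 0.77, and Agpat2, which acylates lysophosphatidic acid on the way to triglyceride, by −3.54 ± 0.93. None passed the threshold in limma over 10 arrays (adjusted p = 0.122, 0.119 and 0.125), and over 20 arrays all 3 did (0.0211, 0.0208 and 0.0293). Of 14 lipogenesis genes tested, 12 had an unadjusted p under 0.05 and were lower, 0 were higher, and the list median was −2.06. The mean level of the list was 0.04, 0.62, 2.87, 3.88 and 3.05 in HF20 and 0.12, −0.02, 0.52, −0.16 and −0.14 in HF75. Of these 10 arrays only the late HF20 ones were high, the arrays with high adipocyte markers.

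Lep read −3.03, −2.24, 3.67, 3.89 and 2.41 on the HF20 arrays and −4.19, −3.85, −2.14, −4.23 and −3.51 on the HF75 arrays. HFC read −2.92, −5.47, 2.72, −1.88 and −3.78, and HF5 read −4.01, −3.66, 2.92, −3.19 and −5.23. High leptin values are thus those of the 5 arrays that stand apart, and HF75 sits with the low arrays of the other groups shown. Cebpa read −0.90, −0.65, 3.86, 4.44 and 4.22 in HF20 and −1.71, −2.24, 0.09, −1.43 and −0.79 in HF75. The early HF20 arrays lie within the HF75 range and the late ones far above it. Scd1, the desaturase that makes oleate, read 2.80, 2.29, 5.54, 6.00 and 5.79 in HF20, where 3 of 5 arrays were saturated, and 2.28, 1.54, 3.65, 2.65 and 2.33 in HF75. Saturation holds its late HF20 values down, and its difference was −1.99 ± 0.52 (adjusted p = 0.125 in limma).

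Over weeks 3 and 6 alone lipogenesis was at −0.34. Single weeks differed, with 0.80 for lipid droplet genes and −0.71 for lipogenesis at week 6. Adipocyte markers had a median difference of −1.84 over 5 weeks, with 7 of 13 lower and 2, Cfd and the saturated Fabp4, higher, and of 0.42 over weeks 3 and 6. With scan day as the block it was −1.98, and within the same-day pairs of weeks 3, 12 and 15 it was 0.04, −3.54 and −2.35. Lipogenesis gave −2.43 with that block and −0.11, −4.06 and −3.52 in those pairs. Of the 13 adipocyte probes, 9 were saturated on some array, Fabp4, the brightest, on all 10, and without these the median was −2.55. Defining markers were on in both doses: Adipoq, the adiponectin gene, read 3.14, 0.31, 5.63, 5.98 and 5.88 in HF20 and 3.54, 1.60, 4.01, 2.87 and 4.24 in HF75. Cfd, the complement factor adipsin, went the other way with 1.03 ± 0.37 (adjusted p = 0.163 in limma), while it was saturated on 3 HF20 arrays and 1 HF75 array.

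Genes that hold or burn the stored fat gave the same picture, in part through shared members. Plin1, Plin4, Cidea, Cidec, Lipe and Pnpla2 stand in both the lipid droplet and the adipocyte list, and Fabp4 in the uptake and the adipocyte list. Lipid droplet and lipolysis genes had a median of −1.61 with 7 of 13 lower and 0 higher (0.29 over weeks 3 and 6; −1.79 with scan day as block). Fatty acid oxidation genes had −1.35 with 8 of 13 lower and 0 higher (0.09; −1.53). Fatty acid uptake and binding genes had −1.38 with 5 of 10 lower and 1 higher (0.04; −1.52). Without the members saturated on some array this list had −1.27 with 3 of 7 lower and 0 higher. Lipe, hormone-sensitive lipase, differed by −2.85 ± 0.89 (adjusted p = 0.139 in limma). Ehhadh, the bifunctional enzyme of peroxisomal oxidation, read −2.90, −0.16, 0.27, 1.39 and 1.15 in HF20 and −3.14, −3.48, −2.30, −3.16 and −2.99 in HF75, a difference of −2.96 ± 0.62 (adjusted p = 0.105 in limma). Here HF20 was already above HF75 at week 6, before its adipocyte markers were high. Slc27a4, a fatty acid transport protein, read −2.25, −0.65, −1.70, −0.60 and −1.67 in HF20 and −3.37, −3.35, −3.30, −2.23 and −3.26 in HF75. The doses nearly separate at this gene, week 3 of HF20 lying just below week 12 of HF75, and the difference of −1.73 ± 0.31 came close to the threshold (adjusted p = 0.0741 in limma, 0.0195 over 20 arrays).

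Hormones and factors of the adipocyte were less uniform. Adipokines had a median of −0.82 with 5 of 12 lower and 1 higher (0.09 over weeks 3 and 6). Without the members saturated on some array it was −0.99 with 3 of 6 lower and 0 higher. Adipogenic transcription factors had −0.72 with 5 of 11 lower and 1 higher (−0.03), and −1.27 without the members that hold a GA motif. Pparg, the nuclear receptor at the head of adipogenesis, read 2.42, −0.07, 5.33, 5.33 and 4.88 in HF20 and 1.85, 1.01, 1.77, 1.63 and 2.36 in HF75, a difference of −1.85 ± 0.73 (adjusted p = 0.186 in limma). At week 6 it was HF75 that read higher. Brown and beige fat genes had a median of −0.45 with 0 of 9 past an unadjusted p under 0.05 in limma (0.54 over weeks 3 and 6). Insulin signalling and glucose genes had −0.52 with 4 of 14 lower and 2 higher (0.31). Akt2, the kinase of insulin-stimulated glucose uptake, differed by −2.09 ± 0.54 (adjusted p = 0.125 in limma, 0.0199 over 20 arrays). With 1 week left out the medians ran from −1.14 to −0.42 for adipokines, −1.17 to −0.15 for adipogenic factors, −0.66 to −0.24 for brown and beige fat and −0.79 to −0.18 for insulin and glucose genes.

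The cholesterol synthesis and uptake list had a median of −0.81 with 6 of 15 lower and 0 higher, and all 6 were lower in 5 of 5 pairs; over weeks 3 and 6 its median was −0.53. Fdft1, squalene synthase, read −0.49, 0.73, 1.16, 1.85 and 0.22 in HF20 and −1.003, −1.58, −0.85, −1.57 and −1.31 in HF75, a difference of −1.96 ± 0.43 (adjusted p = 0.115 in limma, 0.0211 over 20 arrays). No HF75 array reached the lowest HF20 array with this probe, but the other probe of Fdft1 differed by −0.04. Insig1, which holds the SREBP cholesterol sensor back in the endoplasmic reticulum, differed by −2.28 ± 0.64 with its brighter probe and by −1.71 with the other.

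Digestion and early response genes were the highest lists in HF75. Every listed digestion gene but Socs3 also stands in the AP-1, Egr, heat shock, cytokine or chemokine lists, so these lists overlap. Hspa1a, the inducible Hsp70 chaperone, was higher by 4.34 ± 1.18, Nr4a1, an immediate-early nuclear receptor, by 3.40 ± 0.92, and Ier3, an early response gene of stress and NF-kB, by 2.66 ± 0.62 (SE, n = 5 pairs; adjusted p = 0.125, 0.125 and 0.122 in limma, and 0.0207, 0.0255 and 0.0448 over 20 arrays). Of the 13 digestion genes tested, 12 had an unadjusted p under 0.05 and were higher, and the list median was 2.93. It was 0.23 over weeks 3 and 6, 3.30 with scan day as the block, and −0.58, 6.38 and 3.97 in the same-day pairs of weeks 3, 12 and 15. At week 3 the direction is thus the opposite.

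Hspa1a read 5.74, 5.09, −0.34, −0.42 and −0.52 on HF20 arrays and 5.90, 6.14, 6.25, 6.50 and 6.46 on HF75 arrays. Early HF20 arrays lie just under HF75, late ones more than 5 log2 units under it, and its other probes differed by 3.47 to 4.29. Nr4a1 read 6.44, 5.19, 1.64, 0.35 and 3.31 in HF20 and 6.53, 6.87, 7.05, 6.91 and 6.58 in HF75. All HF75 arrays were near the top of the scale and 2 of each dose were saturated. Junb, an AP-1 subunit, was saturated on all 5 HF75 arrays and was at least 6.31-fold higher there. For such a probe, saturated or not well above background throughout a dose, the fold is a bound where the other dose holds no such value. It is the ratio of the brighter mean to the dimmer mean, with dim values raised to the lowest value above background on their array.

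Egr, Nr4a and Klf genes had a median of 2.07, with 12 of 14 higher at an unadjusted p under 0.05, 2 of them higher in 5 of 5 pairs. AP-1 genes had 2.01, with 6 of 8 higher. Over weeks 3 and 6 the medians were 0.39 and 0.20, and with scan day as block 2.25 and 2.19. Fos, the founding AP-1 gene, read 5.10, 4.53, −1.43, −4.85 and 3.00 in HF20 and 4.50, 5.55, 4.14, 5.42 and 5.71 in HF75. Its HF20 values span nearly 10 log2 units while those of HF75 stay within 2. The mean level of the AP-1 list was −0.26, −1.25 and 0.71 in HF20 at weeks 9, 12 and 15 and 2.42 to 3.80 on the HF75 arrays. How cells were prepared on each day is not stated, and its part in these results was not tested.

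Stress lists beyond these were mixed. Heat shock genes had a median of 0.58, with 3 of 11 higher and 1 lower, but 0.21 after quantile normalization and 0.21 when all probes of a gene were averaged. Hspb8, a small heat shock protein, was lower by −1.56 ± 0.36 (adjusted p = 0.122 in limma). Unfolded protein and amino acid stress genes had 0.14, with 0 of 12 higher and 2 lower, among them Asns, asparagine synthetase, at −1.93 ± 0.58. Antioxidant and Nrf2 genes had −0.42, with 5 of 14 lower and 0 higher, all 5 in 5 of 5 pairs. Of these G6pdx, the first enzyme of the pentose phosphate pathway, differed by −2.36 ± 0.69 and Gpx3, the secreted glutathione peroxidase, by −1.66 ± 0.40. Xenobiotic genes had −0.39, with 4 of 15 lower and 0 higher. Gsta3, a glutathione transferase, read −1.22, 2.67, 3.94, 3.95 and 3.89 in HF20 and −1.61, 0.67, 0.66, −0.24 and −0.36 in HF75 (−2.82 ± 0.60, adjusted p = 0.107 in limma). From week 6 on HF20 lies above all HF75 arrays. Glucocorticoid response and metallothionein genes had 0.84, with 3 of 10 higher and 0 lower (0.16 over weeks 3 and 6). Leaving out 1 week gave 0.38 to 0.75 for heat shock, 0.05 to 0.14 for unfolded protein, −0.49 to −0.27 for antioxidant and −0.64 to −0.14 for xenobiotic genes.

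Inflammatory genes were higher in HF75 where the late HF20 arrays were low. Il6, the acute phase cytokine, was higher by 5.90 ± 1.82, Il1b, the inflammasome cytokine, by 4.20 ± 1.16, and Ccl4, a chemokine for monocytes and T cells, by 4.03 ± 0.91 (SE, n = 5 pairs; adjusted p = 0.137, 0.125 and 0.120 in limma). Il6 read 4.17, 1.43, −6.03, −6.49 and −4.62 in HF20 and 2.83, 3.23, 2.23, 4.28 and 5.41 in HF75. It was higher in HF20 at week 3, and the late HF20 arrays lie far below all others. Il1b read 2.60, 1.46, −2.92, −6.71 and −2.54 in HF20, where 4 of 5 arrays were well above background, and 2.64, 3.22, 1.91, 1.97 and 3.14 in HF75. At week 3 the doses nearly coincide at this gene. HFC and HF5 of week 9 also read low for Il6, at −3.53 and −4.38, and their other arrays read 1.88 to 5.75.

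The NF-kB feedback list holds genes that the factor induces, some of which, such as Nfkbia and Tnfaip3, restrain it. Its median was 1.26 with 6 of 10 higher and 0 lower, 4 of them higher in 5 of 5 pairs. It was 0.28 over weeks 3 and 6, 1.35 with scan day as the block, and −0.07, 2.41 and 1.88 in the pairs of weeks 3, 12 and 15. Nfkbia, the inhibitor IkBα, read 6.36, 5.01, 3.70, 3.39 and 4.38 in HF20 and 6.95, 6.73, 6.60, 6.26 and 6.44 in HF75. HF75 is above HF20 in 5 of 5 pairs, and only the week 3 HF20 array reaches into the HF75 range. Its difference was 2.03 ± 0.40 (adjusted p = 0.0927 in limma, 0.0185 over 20 arrays), with 1 HF20 and 3 HF75 arrays saturated and a GA motif in its probe. Tnfaip3, the ubiquitin-editing enzyme A20, read 3.87, 2.66, −0.67, −1.02 and −0.37 in HF20 and 4.12, 3.21, 5.16, 4.08 and 3.93 in HF75 (3.21 ± 0.91, adjusted p = 0.126 in limma). It shows the same split between early and late HF20 arrays.

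Chemokine and cytokine lists followed. Inflammatory cytokines and M1 enzymes had a median of 1.43 with 4 of 9 higher and 0 lower, CC chemokines 1.29 with 4 of 13 higher and 0 lower, and CXC chemokines 1.31 with 5 of 9 higher and 0 lower. Over weeks 3 and 6 these were 0.16, 0.15 and 0.33, and with scan day as block 1.41, 1.02 and 1.95. Cxcl2, a neutrophil chemokine, differed by 4.16 ± 1.51 (adjusted p = 0.166 in limma) and was well above background on 2 of 5 HF20 arrays. Cxcl3, another neutrophil chemokine, was so on no HF20 array and on 3 of 5 HF75 arrays. Both probes passed the filter through HF75 alone. The 8.92-fold difference of Cxcl3 toward HF75 rests on raised dim values in both doses and is no bound. Ccl6, the brightest CC probe, differed by −0.11 ± 0.31. Leaving out 1 week gave medians of 0.83 to 1.44 for CC and 0.84 to 2.11 for CXC chemokines.

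Since NF-kB feedback genes lay on the higher side together, their RefSeq promoters (GRCm38.p6, 250 bases before to 50 after the start) were searched on both strands for the kappaB site. It stood in 6 of 10 promoters of the 7 list genes that matched, those of Nfkb2, Nfkbia, Tnfaip2 and Tnfaip3, and in 1907 of all 32851 promoters (5.81%). It was in 4 of 7 promoters of CXC chemokines, those of Cxcl1, Cxcl2, Cxcl3 and Cxcl10, and in 1 of 7 of CC chemokines. Lists on the lower side hold it too, with 3 of 11 promoters of adipocyte genes and 2 of 16 of lipogenesis genes. It was also in 3 of 7 promoters of AP-1 genes and 2 of 15 of Egr, Nr4a and Klf genes, and promoters of 1 gene can overlap. The feedback list was made of genes that NF-kB induces, so kappaB matches there were to be found whatever the arrays read. CArG (CC, 6 of A or T, GG) and TGACGTCA were searched too. They stood in 5 and 2 of 15 promoters of Egr, Nr4a and Klf genes, against 1.63% and 1.79% of all promoters. These matches describe letters and are no evidence of binding. The Nfkbia promoter, at chr12:55492598-55492897 on the minus strand, is shown as the member nearest the threshold, with its kappaB match in capitals.
Nfkbia: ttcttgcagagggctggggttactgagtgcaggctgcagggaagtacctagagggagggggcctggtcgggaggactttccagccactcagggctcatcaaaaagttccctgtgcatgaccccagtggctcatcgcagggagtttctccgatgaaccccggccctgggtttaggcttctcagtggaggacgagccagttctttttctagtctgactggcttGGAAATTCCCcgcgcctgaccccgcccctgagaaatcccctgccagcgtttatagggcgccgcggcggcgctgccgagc

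Macrophage identity genes ran slightly the other way. Cd163, the haemoglobin scavenger receptor of resident macrophages, was lower in HF75 by −1.42 ± 0.30, and Csf1r, the receptor for macrophage colony-stimulating factor, by −1.23 ± 0.32 (SE, n = 5 pairs; adjusted p = 0.105 and 0.125 in limma, and 0.0301 and 0.0286 over 20 arrays). Cd163 read 1.03, 2.49, 1.72, 2.38 and 2.52 in HF20 and −0.01, 1.73, 0.32, 0.37 and 0.63 in HF75. Csf1r read 0.44, 2.15, 1.98, 1.73 and 0.94 in HF20 and 0.28, 0.70, 0.45, −0.02 and −0.33 in HF75, and its other probes differed by −1.64 and −0.48. For both genes HF75 is the lower array in every week, and the week 3 HF20 array lies within the HF75 range. Of the 13 macrophage markers 4 were lower and 1 higher at an unadjusted p under 0.05, with a median of −0.46 (−0.25 over weeks 3 and 6; −0.29 with scan day as block; −0.07, −0.60 and −0.20 in the pairs of weeks 3, 12 and 15). Adgre1, which encodes F4/80, differed by −0.58 ± 0.24. The member on the higher side was Itgam, the CD11b integrin shared with neutrophils, at 1.53 ± 0.38 (adjusted p = 0.125 in limma), where its other probe gave 0.35. Lyz2, lysozyme, the brightest member probe, differed by 0.64 ± 0.32 with 4 HF20 arrays and 1 HF75 array saturated. With 1 week left out the list median ran from −0.58 to −0.26.

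Macrophage states and functions were as mixed. Lipid-associated macrophage genes had a median of 0.04, with 2 of 9 higher and 1 lower (−0.19 over weeks 3 and 6). Spp1, osteopontin, read 2.71, 2.06, −1.46, −0.84 and −0.84 in HF20 and 3.03, 3.84, 1.84, 3.78 and 3.30 in HF75 (2.83 ± 0.64, adjusted p = 0.120 in limma, 0.0308 over 20 arrays). The late HF20 arrays are again the low ones. Lpl, lipoprotein lipase, which adipocytes also make, was the member on the lower side at −1.50 ± 0.50. Alternatively activated macrophage genes had 0.32, with 2 of 10 higher and 2 lower (−0.05 over weeks 3 and 6). Mgl2, a lectin of dermal and fat macrophages, differed by −1.04 ± 0.27. Complement genes had −0.42 with 3 of 13 lower and 2 higher, and −0.67 with 3 of 10 lower and 0 higher without the members saturated on some array. Lysosome genes had −0.46 with 1 of 15 lower and 1 higher (−0.05 over weeks 3 and 6). MHC class II genes had 0.23 with 1 of 7 higher and 0 lower (−0.19 over weeks 3 and 6), and 0.21 with 0 of 6 higher without the saturated member. When 1 week was left out, the medians ran from −0.29 to 0.59 for lipid-associated and 0.13 to 0.46 for alternatively activated macrophage genes, −0.52 to −0.30 for lysosome and 0.04 to 0.53 for MHC class II genes.

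Interferon-stimulated genes held the only list member that passed the test by its brightest probe. Mx1, an antiviral GTPase, read −1.88, −4.68, −3.67, −5.34 and −5.65 in HF20 and 1.74, −0.90, −1.20, 1.15 and 0.09 in HF75, and rose by 4.42 ± 0.60 (adjusted p = 0.0471 in limma). No HF20 array reached the lowest HF75 array. Its probe holds 4 GA motifs, 3 of which overlap. Mx2, a related GTPase whose probe holds none, differed by 1.86 ± 0.45 (adjusted p = 0.125 in limma), and Irf7, the factor that amplifies interferon transcription, by −1.09 ± 0.31. In all, 4 of 15 were higher and 1 lower at an unadjusted p under 0.05, with a median of 0.54 (0.26 to 0.70 with 1 week left out). Without the 3 members that hold a GA motif the median was 0.29. Mmp13, a collagenase, is a second case, at 5.20 ± 0.87 (adjusted p = 0.0645 in limma) with 3 motifs. Both probes are printed with GAGAG and GAGGAG in capitals because they lead their lists.
Mx1: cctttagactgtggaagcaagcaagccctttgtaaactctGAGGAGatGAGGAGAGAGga
Mmp13: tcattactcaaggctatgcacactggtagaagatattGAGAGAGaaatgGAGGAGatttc

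Lymphoid genes were high on some arrays of each dose and low on others. Lymph node genes had mean levels of 2.18, −2.36, −2.31, −2.52 and −2.17 in HF20 and 2.16, −2.50, 2.02, 1.64 and −1.50 in HF75. B cell genes read 0.68, −4.75, −3.48, −4.53 and −4.15 in HF20 and 0.36, −5.37, 0.72, −0.02 and −5.30 in HF75. The same arrays are high in both lists: week 3 of both doses and weeks 9 and 12 of HF75, with HFC of weeks 3 and 15 and HF5 of weeks 3 and 12. Their median differences were 1.63 and 1.54 over 5 weeks and −0.33 and −0.33 over weeks 3 and 6. T cell genes had 1.75 (−0.16), with mean levels of 0.27, −3.09, −2.57, −3.71 and −2.44 in HF20 and 0.79, −3.83, 1.59, −0.08 and −3.66 in HF75. In limma 0 of 8 B cell and 0 of 10 T cell genes passed an unadjusted p under 0.05, and of 6 lymph node genes 2 were higher and 1 lower. NK and cytotoxic genes had 0.78 with 1 of 9 higher. Dendritic cell genes had 0.11 with 0 of 7 higher and 1 lower (−0.47 over weeks 3 and 6, −0.21 without the member that holds a GA motif). Medians with 1 week left out ran from 0.59 to 2.31 for lymph node, 0.61 to 2.17 for B cell, 0.92 to 2.36 for T cell, 0.19 to 1.16 for NK and −0.42 to 0.17 for dendritic cell genes.

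Ccl19, a chemokine of lymph node stroma that draws T cells and dendritic cells, did not follow its list. It read 3.53, 2.83, 0.11, −0.04 and 0.20 in HF20 and 4.06, 5.04, 3.53, 3.49 and 4.04 in HF75, a difference of 2.71 ± 0.51 (adjusted p = 0.0864 in limma, 0.0275 over 20 arrays), and its other probe gave 2.74. It was high at week 6 of both doses, where the lymph node list was low, and low on the late HF20 arrays. Neutrophil genes had a median of 1.54, with 3 of 11 higher and 0 lower, and −0.20 over weeks 3 and 6 (0.78 to 2.10 with 1 week left out). Their mean level was −1.06, −3.06, −2.84, −3.99 and −2.56 in HF20 and −1.74, −3.36, −0.89, 0.11 and −0.15 in HF75. The late HF75 arrays lie above every HF20 array and the early ones do not. S100a9, a calprotectin subunit, read 4.93, 1.57, 1.53, 0.85 and 3.26 in HF20 and 4.29, 3.11, 5.42, 6.21 and 6.32 in HF75 (2.64 ± 0.81, adjusted p = 0.136 in limma). The late HF75 arrays are its highest. Mast cell genes had −0.31 with 1 of 7 higher (−0.48 to −0.10 with 1 week left out).

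Among other tissue markers, the mesothelial list was high at week 6. Mesothelial genes had mean levels of 0.78 and 0.57 at week 6 of HF20 and HF75, and from −5.27 to −3.06 on the other 8 arrays. Msln, mesothelin, their defining gene, read −4.34, 2.41, −4.57, −5.31 and −6.77 in HF20 and −2.97, 2.88, −3.35, −0.95 and −1.92 in HF75. It is high at week 6 in both doses and in HFC and HF5 as well, at 3.48 and 1.97. The list median was 1.21 with 2 of 4 higher (0.57 over weeks 3 and 6). Schwann and nerve genes had 1.73 with 2 of 6 higher, epithelial genes 1.64 with 0 of 7 past an unadjusted p under 0.05 in limma, and skeletal muscle genes 1.24 with 0 of 10. Over weeks 3 and 6 these were −0.31, −0.57 and −0.14. Without its 2 members that hold a GA motif the epithelial median was −0.10, and without its saturated members it was 0.77. Endothelial genes had 0.52 with 0 of 10, and pericyte and smooth muscle genes 0.50 with 2 of 8 higher. Without its saturated members the pericyte median was 0.03 with 0 higher, and without its 2 members that hold a GA motif it was 1.17. Fibroblast and progenitor genes had 0.06 with 1 of 12 higher, and −0.25 over weeks 3 and 6. Without its saturated members that list had −0.11 with 0 of 7 higher. Erythroid genes had −0.77 over the 3 of 6 tested. Y chromosome genes had 0.04 and were on in both doses, with mean levels of −1.44 to −0.67 in HF20 and −1.52 to −0.90 in HF75, and Xist was not tested because it did not pass the filter. Leaving out 1 week gave 0.65 to 1.59 for mesothelial, 1.04 to 2.33 for Schwann, 0.56 to 2.08 for epithelial and 0.23 to 2.22 for skeletal muscle genes. It gave 0.26 to 0.93 for endothelial, 0.23 to 1.01 for pericyte, −0.03 to 0.20 for fibroblast, −1.32 to −0.03 for erythroid and −0.01 to 0.09 for Y chromosome genes. Whether these tissues have a part in the differences above was not tested.

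Of 14 collagen genes 7 were lower in HF75, and week 15 showed little difference. Col4a2, a basement membrane chain, was lower by −1.60 ± 0.30 (SE, n = 5 pairs; adjusted p = 0.0864 in limma, 0.109 over 20 arrays) and its other probe gave −2.15. It read 2.91, 2.51, 2.82, 3.60 and 2.72 in HF20 and 1.26, 0.99, 0.93, 1.37 and 2.01 in HF75. No HF75 array reaches the lowest HF20 array. Col4a1, its partner chain, differed by −1.25 ± 0.35 and Col6a1, of the beaded filament collagen, by −1.14 ± 0.29. At an unadjusted p under 0.05 the count was 7 lower and 0 higher, and it was 7 and 0 for 5 of 5 pairs. The median was −0.79, with −0.62 over weeks 3 and 6, −0.60 with scan day as the block and −0.81, −0.87 and −0.08 in the pairs of weeks 3, 12 and 15. Col1a2 and Col3a1, the main interstitial chains, were saturated on all HF20 arrays and allow no fold.

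Around the collagens, TGF-beta and fibrosis genes had a median of 0.35 with 2 of 15 higher and 1 lower. Matrix proteases and TIMPs had 0.10 with 2 of 16 higher and 2 lower. Over weeks 3 and 6 these medians were −0.25 and −0.20, and with scan day as block 1.17 and 0.24. Without its members that hold a GA motif the protease list was at −0.09. Angiogenic and hypoxia genes had 0.07 with 2 of 15 higher and 2 lower, where Bnip3, a mitophagy receptor, was at −2.23 ± 0.66. Wnt pathway genes had 0.12 with 1 of 15 higher and 1 lower (−0.33 over weeks 3 and 6, −0.01 without the member that holds a GA motif). Cell cycle genes had 0.69 with 2 of 15 higher, led by Mki67, the proliferation antigen, at 1.29 ± 0.51 (adjusted p = 0.187 in limma). Clock genes had −0.08 with 2 of 13 higher and 3 lower (0.25 over weeks 3 and 6). Per3, a period gene, was not well above background on any HF75 array, and its probe passed the filter through HF20 alone. Its 4.28-fold difference toward HF20 rests on dim values that were raised. The repressor Cry1 differed by 1.13 ± 0.26. With 1 week left out the medians ran from 0.16 to 0.99 for TGF-beta, −0.07 to 0.31 for protease, −0.10 to 0.47 for angiogenic, −0.05 to 0.29 for Wnt, 0.33 to 0.87 for cell cycle and −0.29 to 0.05 for clock genes. The time of day at which animals were killed is not stated.

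Mitochondrial and ribosomal genes differed in opposite directions, in part at the ceiling of the scanner. Cyc1, the cytochrome c1 subunit of complex III, read 2.94, 2.89, 4.65, 4.91 and 4.87 in HF20 and 2.61, 2.02, 3.53, 2.52 and 2.57 in HF75, a difference of −1.40 ± 0.39 (adjusted p = 0.125 in limma, 0.0423 over 20 arrays). HF75 is the lower array in every week, and the early HF20 arrays lie within the HF75 range. Of 15 respiratory chain and ATP synthase genes 8 were lower and 1 higher at an unadjusted p under 0.05, with a median of −0.81, 0.03 over weeks 3 and 6, −1.04 with scan day as block, and 0.01, −1.66 and −1.61 in the pairs of weeks 3, 12 and 15. Without the members saturated on some array the median was −1.18, with 6 of 8 lower and 0 higher. Mean levels of the list were 3.69, 3.63, 4.81, 5.17 and 5.08 in HF20 and 3.70, 3.70, 3.97, 3.64 and 3.69 in HF75. The 3 high HF20 arrays are those with high adipocyte markers.

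Ribosomal protein genes had a median of 0.82, with 8 of 16 higher and 0 lower, but 0.10 after quantile normalization. Of the 16, 9 were saturated on some array and 4, Rplp0, Rps3, Rps14 and Rps20, on all 10, and without the 9 the median was 0.63 and 0 of 7 had an unadjusted p under 0.05 in limma. Saturated spots carry the brightness difference: the 241 probes saturated on all 10 arrays had a median difference of 1.13, with weekly medians of 0.53, 1.60, 1.71, 1.25 and 0.59 that mirror the brightness differences of −0.53, −1.62, −1.70, −1.21 and −0.62. Probes saturated on at least 1 array had 0.95 and those saturated on none −0.14.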

How the data were processed

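RNA of subcutaneous SVCs was read on 1-colour Agilent arrays, and the 10 arrays of the comparison come from a series of 40. The intensity values are processed signals that, per the file headers, Feature Extraction made by subtracting background; they are not on a log scale. The deposited table of log2 fold changes, in which the authors set each array against the low-fat array of its time point, was not used. Here outlier spots were dropped, duplicate spots averaged, values taken to log2 and each array's 75th percentile subtracted, and values not well above background raised to the lowest such value of their array. Probes were tested where 3 or more of the 5 arrays of either dose read them well above background. The test was limma 3.58.1 (R 4.3.3) with week as a block and Benjamini-Hochberg adjustment. Python 3.11.15, numpy 2.4.6, pandas 2.3.3, scipy 1.17.1 and matplotlib 3.10.9 did the rest.

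RefSeq named 34524 of 40628 probes. Each gene is represented by its brightest tested probe. Genes were named by rule: up to 10 each way with the largest difference among those with an adjusted p under 0.05 and the same sign in 5 of 5 pairs, filled by lowest unadjusted p, and from each of 55 lists the brightest member and up to 3 of lowest p. Members, lists and rules were chosen with earlier results of these data known. The test of the study's methods was run as an unpaired comparison of means with equal variances, with no week term. Alternatives tried were 35 planned in scaling, floors, filters, models and members, and 7 added after seeing the data.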

Additional observations from a re-analysis of the deposited data

Results flagged for a closer look

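An array was singled out where its value lay far outside the other 4 of its dose. This was so in 10 of 160 groups of 5 arrays, and chance gives about 1 in 20. None of these differences was tested. On the HF20 array of week 3 the mean level was 3.23 for endothelial genes (others 1.32 to 1.86), 0.68 for B cell genes (−4.75 to −3.48), 2.18 for lymph node genes (−2.52 to −2.17), 1.40 for Schwann genes (−3.14 to −1.94) and 1.07 for antioxidant genes (1.76 to 2.04). Polq read −1.43 on the same array (others −7.86 to −6.32). Mesothelial genes had 0.78 on the HF20 array of week 6 (others −5.27 to −4.79). In HF75, CXC chemokines had 1.39 at week 15 (others −0.36 to 0.14), heat shock genes 3.35 at week 3 (3.95 to 4.16) and respiratory chain genes 3.97 at week 9 (3.64 to 3.70). One week 18 array, left out because its dose labels conflict, had 21710 outlier spots, where the other arrays read here had 21 to 63.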

How the results depend on the processing

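These results rest on 1 array per dose and week, on arrays that differ in brightness with dose, and on HF20 arrays of weeks 9, 12 and 15 with high adipocyte markers, which cannot be told apart from the dose. Of the gene list values compared, 649 stayed within 1 SD and 14 moved further. Of those of named genes, 2049 kept their sign and their side of the threshold, 86 no longer passed it, 18 newly passed it and 69, none past it, changed sign. Over weeks 3 and 6 the sign was the opposite for 24 of 54 lists and 35 of 202 named genes, and over the other alternatives for 26 of 609 and 34 of 2020 values. Arrays of a week correlated at 0.31, 0.54, 0.06, −0.15 and 0.10 for weeks 3 to 15, against at most 0.09, −0.02, 0.13, 0.19 and 0.14 with another week, so week numbers do not all mark pairs.

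In place of 104 calls, normexp background correction gave 169 and shifted the median difference by 0.35, one common floor gave 263, no week block 59, a trended robust prior 309, array weights 300, the test of the study's methods 0, scan day as block 0, no GA motif probes 0, weeks 3 and 6 alone 0 and the mean over all probes of a gene 0 of 22051 genes. Leaving out 1 week gave 0 to 386. The 20-array fit gave 2947 calls, 2009 without GA motif probes, and 5777, 0, 916, 249 and 0 without week 3, 6, 9, 12 or 15. In place of 476 probes 2-fold apart in all pairs, 267 were well above background on all 10 arrays, and leaving out 1 week gave 487 to 1488. Over weeks 3 and 6 the list medians were 0.42 for adipocyte, −0.47 for dendritic cell, −0.57 for epithelial, 0.15 for CC chemokine, −0.0496 for lysosome, −0.34 for lipogenesis, 0.0364 for fatty acid uptake, 0.0906 for fatty acid oxidation, 0.29 for lipid droplet, 0.54 for brown and beige fat and 0.31 for insulin genes. Heat shock genes had 0.21 after quantile normalization and 0.21 as mean over probes, and ribosomal genes 0.10 after quantile normalization. The cause was not tested.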

Other observations

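The 2 arrays of week 18 carry labels that name both doses and were left out. One had a 75th percentile of 2212, 98.0% of spots well above background and a median signal 48.5 times background. The other had 478, 69.2% and 5.23.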
